A study of Mus musculus with 72 samples.

Results

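A group of 10 imprinted genes was followed through differentiation of hybrid mouse embryonic stem cells (mESCs) toward neuronal precursor cells (NPCs). They were chosen by name as imprinted genes present in the count files, by a rule that holds no measured value, and made up 10 of the 22556 genes listed: Peg10, Sgce, Mest, Peg3, Usp29, Igf2r, Airn, Plagl1, Grb10 and Impact. Chromatin-associated RNA sequencing (ChrRNA-seq), which reads RNA still held on chromatin and so counts introns as well as exons, was performed on female cells carrying 1 Dom/129S and 1 Cast genome. In the iXist-ChrX-Dom line doxycycline induces Xist, the RNA that silences the X chromosome, from the Dom X, and in iXist-ChrX-Cast from the Cast X. Each line had a wild-type (WT) clone, and SmcHD1 knockout (KO) clones had been made from it by CRISPR-Cas9 mutagenesis. SmcHD1 is a chromosomal protein needed for stable X inactivation and known to act at some imprinted clusters.

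The iXist-ChrX-Dom line gave WT and the KO clone A3 at days 2, 3, 5, 7, 15, 21, 35 and 52 of induction. The iXist-ChrX-Cast line gave WT and the KO clones D5 and G6 at the same days up to day 35. All induced cultures received doxycycline in N2B27 medium and were placed in suspension with EGF and FGF at day 7. Uninduced ES cells were sequenced here only for the KO clones. A KO clone is 1 clone of cells, so in the iXist-ChrX-Dom line genotype and clone cannot be told apart. The 72 libraries were summed into 65 replicates, with 2 to 3 replicates per clone and day through day 7 and 1 from day 15, so the late days (15 and later) stand as each other's replicates. Library totals were 9344054 to 31216487 fragments, of which 44.8% to 50.3% were assigned to an allele. Replicates through day 7 came, per the study, from repeated time courses of the same clones. So p-values measure the spread between cultures of a clone, and not between clones, except where D5 and G6 are tested together as KO. There the difference between these 2 clones is part of the spread. In tests of change over time, differences between the days of a period are part of it too.

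Imprinting marks 1 parental copy of a gene with DNA methylation in the germ line, and in many tissues only the other copy is then transcribed. Of the genes followed here, Peg10, Sgce, Mest, Peg3, Usp29, Airn, Plagl1 and Impact are known as paternally expressed genes and Igf2r as a maternally expressed one, while Grb10 is maternally expressed in most tissues and paternally in neurons. In a hybrid of 2 strains a gene read from 1 parental copy would have a Cast share, the Cast fragments over the Cast plus Dom fragments, close to 0 or to 1. The labels give the pair of strains but not which was the mother. Cultured mESCs, female ones above all, are known to lose methylation at imprinted control regions.

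Peg3, a zinc finger gene, and Usp29, which encodes a ubiquitin protease, share a bidirectional CpG-rich start on chromosome 7, which is part of the imprinted control region of their domain. Promoters were to be shown for the gene pairs that start side by side, and the RefSeq promoter set held none for the other pair, Peg10 and Sgce. Peg3 and Usp29 rose together and had similar shares in these libraries. The Peg3 promoter window, 250 bases before to 50 after the RefSeq start in GRCm38.p6, is chr7:6730370-6730669 on the minus strand and is written 5′ to 3′ with CpG dinucleotides in capitals.
Peg3: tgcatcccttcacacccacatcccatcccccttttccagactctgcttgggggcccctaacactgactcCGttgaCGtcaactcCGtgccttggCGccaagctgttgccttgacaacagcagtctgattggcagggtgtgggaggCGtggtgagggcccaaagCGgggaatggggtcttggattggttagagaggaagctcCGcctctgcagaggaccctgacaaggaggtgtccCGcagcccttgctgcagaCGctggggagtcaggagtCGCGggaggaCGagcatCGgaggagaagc
The window holds 13 CpGs, and 37.9% of 32851 RefSeq promoter windows of the same length hold as many. The Usp29 window covers 263 of the same bases on the other strand and holds 17 CpGs, a number reached by 31.4% of windows. CpG methylation was not measured in these samples.

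The genes lie in 7 places of the mm10 genome, all on autosomes. Peg10, a gene derived from a retrotransposon, lies at chromosome 6, 4747305 to 4760516 on the plus strand, and Sgce, which encodes epsilon-sarcoglycan, at 4674349 to 4747204 on the minus strand, with 100 bases between their starts. Mest, which encodes a hydrolase-like protein of mesoderm, is further along chromosome 6 at 30733505 to 30748466. Peg3 occupies chromosome 7 at 6705959 to 6730419 on the minus strand, and Usp29 begins 162 bases away and runs the other way to 6967219. Igf2r, the receptor that clears the growth factor IGF2, lies at chromosome 17, 12682405 to 12769706 on the minus strand. Airn, the noncoding RNA transcribed against Igf2r and known to silence it in cis, spans 12741310 to 12859884 on the plus strand and shares 28397 bases with it, which strand-specific counting keeps apart. Plagl1, a zinc finger growth regulator, is on chromosome 10 at 13090787 to 13131695. Grb10, an adaptor that dampens insulin and IGF signaling, is on chromosome 11 at 11930498 to 12037420, and Impact, a regulator of the stress kinase GCN2, is on chromosome 18 at 12972251 to 12992948.

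All 10 genes were transcribed from both alleles in each clone, line and period. No replicate of any gene had a Cast share at or beyond 0.1 or 0.9, the bounds used for monoallelic state, in 65 replicates each. Over all replicates the share ran from 0.456 through a median of 0.568 to 0.659 for Peg10, from 0.486 through 0.518 to 0.589 for Sgce, and from 0.412 through 0.477 to 0.579 for Mest. These 3 genes of chromosome 6 stayed near even shares of the 2 alleles. For Peg3 the lowest, median and highest shares were 0.432, 0.504 and 0.608, and for Usp29 0.399, 0.488 and 0.646. Igf2r had shares of 0.376, 0.461 and 0.538, and Airn, from the other strand, 0.455, 0.510 and 0.584. So the receptor and its antisense RNA were both read from both alleles. Impact had the narrowest range, 0.520, 0.554 and 0.602. Plagl1 reached lower, with 0.284, 0.442 and 0.564.

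Grb10 had the widest range, from 0.161 through 0.497 to 0.796, and also the fewest fragments. Its allelic fragments numbered between 4 and 2994 per replicate, and in the 20 replicates with at least 500 of them the share was 0.274 to 0.553. The 2 most uneven values were both from late WT libraries. In iXist-ChrX-Dom WT at day 35 the Cast share of Grb10 was 0.796 over 226 allelic fragments (95% Wilson interval 0.739 to 0.844), and in iXist-ChrX-Cast WT at day 35 it was 0.161 over 360 fragments (0.127 to 0.203). The intervals cover counting error only, and PCR copies are not independent molecules. The 2 libraries differed in opposite directions, and the other late libraries lay between 0.274 and 0.542 except A3 at day 52, with a share of 0.250 over 4 fragments.

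**Figure D1:**
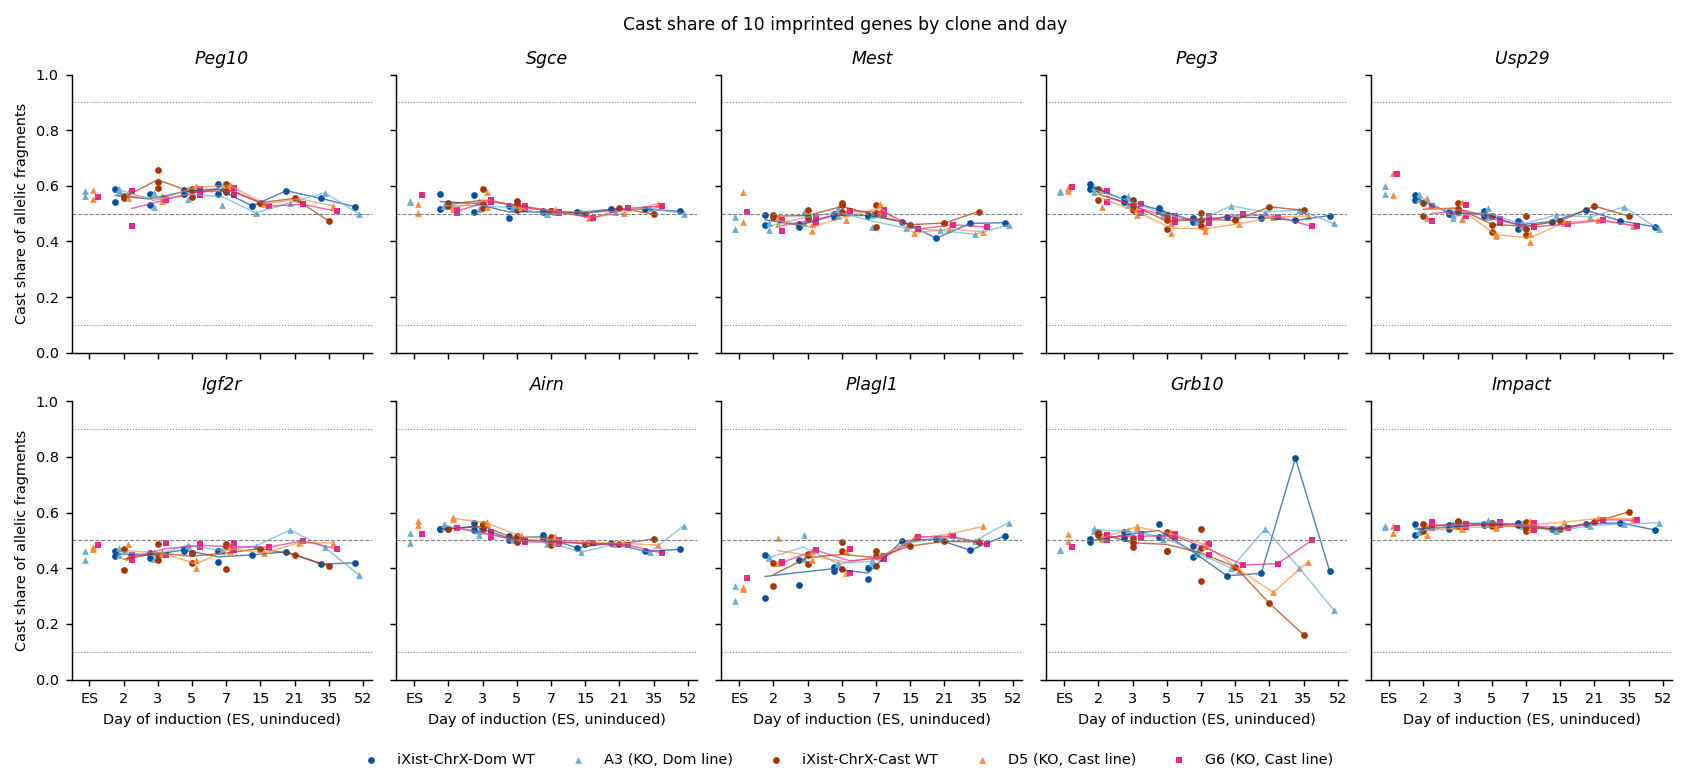
Cast share of allelic fragments (vertical axis, 0 to 1) of 10 imprinted genes by day of induction (horizontal axis, ES for uninduced cells). Each symbol is a replicate of a clone, lines join the daily means of a clone, the dashed line marks equal shares and the dotted lines mark 0.1 and 0.9. All symbols lie between the dotted lines, and only Grb10 at late days moves widely, from 0.161 to 0.796.

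A clone was called monoallelic for a gene where every induced replicate had a share at or beyond 0.1 or 0.9, among autosomal genes with at least 10 allelic fragments in each. By this rule 0 of 10 genes were monoallelic in iXist-ChrX-Dom WT, where 0.0983% of 11188 autosomal genes were, and 0 of 9 in A3, where 0.0562% of 10673 were and Grb10 was too low to be included. The rule called 0 of 10 in iXist-ChrX-Cast WT against 0.112% of 10740 genes, 0 of 10 in D5 against 0.102% of 10814, and 0 of 10 in G6 against 0.102% of 10780. Such calls were rare among genes of any kind. With bounds of 0.2 and 0.8 the number of these imprinted genes called was again 0 in each clone.

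Other imprinted genes were compared by the median share of induced replicates in each clone, which for the 10 genes ran from 0.418 to 0.58. Of 16 others with enough allelic fragments, 10 had all their clone medians between 0.4 and 0.6. The gene furthest from even shares, named after its values were seen, was Snrpn, which encodes a splicing protein and is known as paternally expressed. It had clone medians of 0.0759 to 0.129, while the genes within 5 Mb of it had a median of 0.468. Its share passed 0.1 in some replicates of each clone, up to 0.542 in A3, so it was not called monoallelic. The noncoding RNAs Meg3, Rian and Mirg of distal chromosome 12 had clone medians of 0.735 to 0.782, but the genes around them had a median share of 0.723. That part of chromosome 12 was uneven in all 5 clones. In the 5 ES replicates Meg3 was above the genes around it by 0.111 to 0.129, Rian by 0.0968 to 0.114 and Mirg by 0.118 to 0.139.

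The same local comparison was made for each of the 10 genes, with the median share of genes on no imprinted list within 5 Mb as the control. Impact was above its neighborhood in 65 of 65 replicates, by a median of 0.0663. Peg10 was above in 57 replicates (median difference 0.0431), while Sgce, whose start is beside it, was above in 33 and below in 32. Igf2r was below in 56 replicates (median -0.0274), and Airn was above in 52 (0.0249). Plagl1 was below in 59 replicates by a median of -0.0571, and in the 5 ES replicates the difference was larger, -0.244 to -0.119. Peg3 was above in 50 replicates (median 0.0322), Usp29 in 42 (0.0155) and Mest in 36 (0.00864). Grb10 was below in 48 of 64 (-0.0279), and late its difference ran from -0.334 to 0.236. In the 5 ES replicates Peg3 was above by 0.0998 to 0.121 and Usp29 by 0.0891 to 0.174. Over induced replicates no clone median of a member departed from its neighborhood by 0.1 or more. Among the others, Snrpn, Slc38a4 and Inpp5f did. The chromosome windows of 20 Mb that hold the 10 genes had shares of 0.441 to 0.531 in all replicates. Elsewhere whole windows stood apart, such as distal chromosome 6 in iXist-ChrX-Dom WT, where the window from 140000001 to 160000000 had shares of 0.0607 to 0.516, far from Peg10, Sgce and Mest on the same chromosome.

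**Figure D2:**
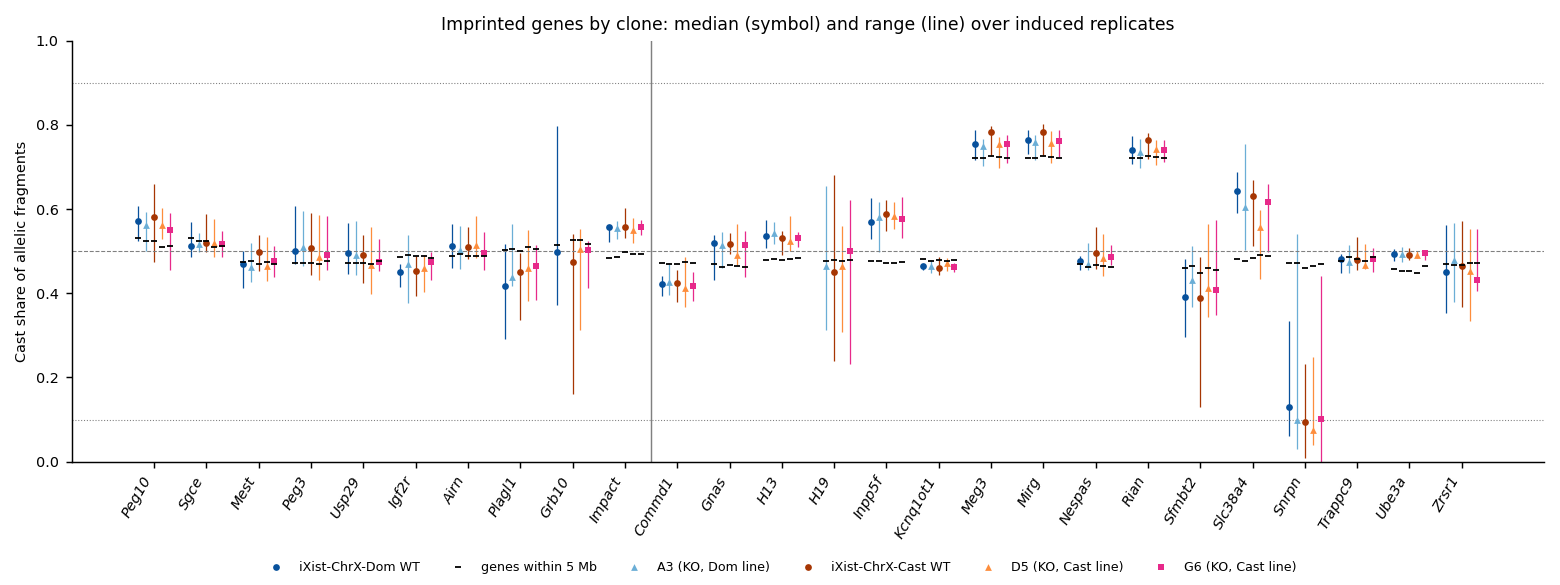
Cast share (vertical axis) of the 10 imprinted genes, left of the vertical line, and of 16 other imprinted genes, right of it. Symbols are medians and lines ranges over the induced replicates of a clone, and black dashes give the median of genes within 5 Mb. Medians of the 10 genes lie between 0.418 and 0.58, Snrpn lies between 0.0759 and 0.129, and Meg3, Rian and Mirg lie beside their neighborhood at 0.723.

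Total RNA of the same genes was not level over time. It is given in RPM, a gene's fragments scaled to the same total in each library, and fold changes are on the log2 scale from edgeR's quasi-likelihood test with Benjamini-Hochberg adjustment over all genes tested, with a threshold of 0.05. Between genes the levels are comparable only per length: in ES cells the median RPM per kb was 23.4 for Impact, 9.57 for Peg10 and 5.73 for Peg3, and at days 2 and 3 Impact (12.6) was again above Peg3 (9.41) and Peg10 (2.21). Late, Peg3 (36.9) and Peg10 (25.8) were above Mest (15.7), Impact (11.3) and Airn (10.8), and the other 5 genes were at 5.48 or less. Bulk counts cannot tell fewer cells of a type from less RNA per cell.

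Peg10 and Sgce rose from days 2 and 3 to late days in all 5 clones. Peg10 had 81.1 to 182 RPM in the 5 ES replicates, 20.1 to 56.8 (median 29.2) in 21 replicates of days 2 and 3, 78.4 to 1172 (median 183) in 22 of days 5 and 7, and 141 to 546 (median 340.3) in 17 late ones. The ES replicates of Peg10, all of KO clones, did not overlap those of days 2 and 3, and neither did the day 2 to 3 and late ones. How many of all genes are separated in this way, here and for the genes below, was not counted. Sgce had no such dip, with 13.8 to 45.0 RPM in ES cells, 24.2 to 113 (median 53.6) at days 2 and 3, 127 to 303 (median 210.3) at days 5 and 7 and 177 to 377 (median 271) late. Log2 changes from days 2 and 3 to late days were 3.17 to 4.28 for Peg10 (largest adjusted p = 0.00029 in edgeR) and 2.24 to 3.14 for Sgce (largest adjusted p = 0.00016).

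Peg3 and Usp29 rose together. Peg3 had 130.4 to 151 RPM in ES cells, 135 to 292 (median 230.1) at days 2 and 3, 248 to 1382 (median 836) at days 5 and 7, and 462 to 2373 (median 904) late, so that the early and late replicates did not overlap. Usp29 had 11.8 to 20.0 RPM in ES cells, 12.4 to 27.7 (median 18.9), 22.7 to 174 (median 74.2) and then 8.24 to 256 (median 82.2). Its lowest late value, 8.24 in A3 at day 52, lay below all day 2 to 3 replicates, and the other late replicates were at 20.3 or more. The log2 changes were 2.24 to 3.05 for Peg3 and 2.13 to 3.08 for Usp29, each past the threshold in all 5 clones (largest adjusted p in edgeR 0.00023 and 0.0049).

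Airn rose in all 5 clones, and Igf2r fell in 3. Airn had 42.4 to 66.6 RPM in ES cells, 73.3 to 256 (median 131) at days 2 and 3, 168 to 1034 (median 564) at days 5 and 7, and 709.7 to 2064 (median 1283) late, with no overlap between the early and late replicates. Its log2 change was 3.14 to 4.04 over the 5 clones (largest adjusted p = 4.1e-05 in edgeR). Igf2r had 102 to 171 RPM in ES cells, 74.5 to 210.3 (median 110.4) at days 2 and 3, 37.6 to 82.4 (median 64.0) at days 5 and 7, and 26.2 to 143 (median 69.6) late. It fell past the threshold in iXist-ChrX-Cast WT (log2 -0.71, adjusted p = 0.0077), D5 (-0.60, adjusted p = 0.021) and G6 (-0.79, adjusted p = 0.041) in edgeR. In iXist-ChrX-Dom WT the change was -0.32 (95% interval -0.69 to 0.04) and in A3 0.17 (-0.50 to 0.85). The G6 call was lost without any 1 of 6 libraries (day 2 replicate 2, day 3 replicate 2, either of day 7, day 21 or day 35), with log2 changes of -0.82 to -0.51, and the D5 call without day 2 replicate 2 (-0.44) or day 21 (-0.47). Over the 65 replicates Airn ranked 10637 of 10723 genes by its Spearman correlation with Igf2r (rho = -0.70). This describes libraries that share a time course and depth, and both genes were read from both alleles as given above.

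**Figure D3:**
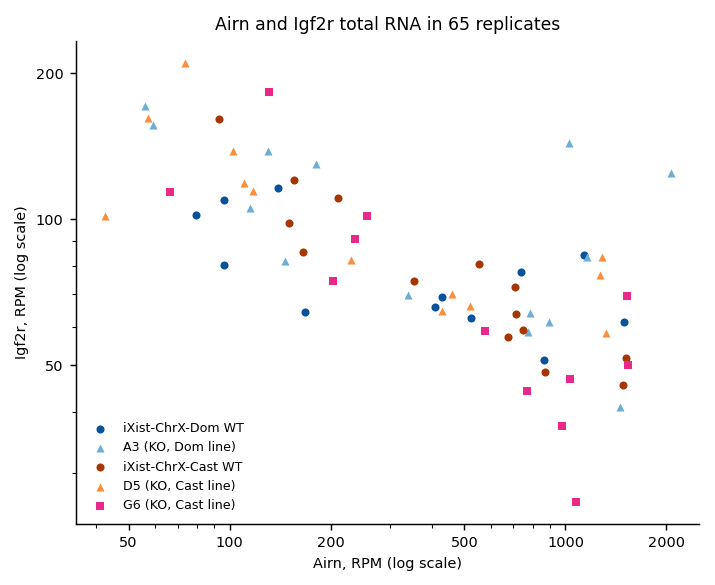
Total RNA of Igf2r (vertical axis, RPM, log scale) against Airn (horizontal axis, RPM, log scale) in 65 replicates, colored by clone. Replicates with little Airn, down to 42.4 RPM, mostly have more than 100 RPM of Igf2r, and those with 700 RPM or more of Airn mostly have less.

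Plagl1, Mest, Grb10 and Impact took separate courses. Plagl1 had 38.3 to 69.2 RPM in ES cells, fell to 7.20 to 20.2 (median 13.3) at days 2 and 3, and then had 14.5 to 70.6 (median 29.3) and 58.3 to 326 (median 224). Its late rise, 3.60 to 4.68 on the log2 scale, was past the threshold in the 5 clones. Mest had 66.6 to 121 RPM in ES cells, 68.8 to 157 (median 109.7) and 46.1 to 153 (median 69.8) at the early days, and 78.4 to 688 (median 234) late. Its late groups overlapped the early ones, and its log2 rise was 0.86 in iXist-ChrX-Dom WT, 1.32 in A3 and 2.16 to 2.38 in the iXist-ChrX-Cast clones. The A3 call for Mest (adjusted p = 0.022 in edgeR) was lost without day 15 (0.70), day 2 replicate 1 (1.32) or day 3 replicate 1 (1.29).

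Grb10 had 39.2 to 84.5 RPM in ES cells, 41.8 to 144 (median 59.7) at days 2 and 3, 4.00 to 63.7 (median 17.4) at days 5 and 7, and 0.202 to 50.0 (median 11.5) late. It fell in iXist-ChrX-Dom WT (log2 -2.07, adjusted p = 0.018), A3 (-3.91, adjusted p = 0.0032) and D5 (-2.53, adjusted p = 0.0039) in edgeR. The values were -0.31 (95% interval -1.26 to 0.64) in iXist-ChrX-Cast WT, whose day 21 and 35 libraries had 50.0 and 37.2 RPM, and -1.88 (-4.00 to 0.23) in G6. Without day 15 the G6 change was -4.90 (adjusted p = 5.4e-05 in edgeR). Impact changed little after induction, with 302 to 529 RPM in ES cells, 211 to 323 at days 2 and 3, 159 to 319.8 (median 233) at days 5 and 7 and 155 to 348 (median 234) late. None of its 5 late changes, 0.08 to 0.34, passed the threshold. In iXist-ChrX-Cast WT it was 0.65 (adjusted p = 0.0032 in edgeR) without day 15.

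Counted over the genes, 8 of 10 passed the threshold in iXist-ChrX-Dom WT (7 up and 1 down), where 54.9% of 15312 genes did. In A3 it was 7 up and 1 down, against 54.7% of all genes, in iXist-ChrX-Cast WT 7 up and 1 down, against 53%, in D5 7 up and 2 down, against 55.1%, and in G6 7 up and 1 down, against 53.9%. The median log2 change of the 10 genes was 2.24 to 2.92, while that of all genes tested was within -0.01 and 0.06. Scaling by library totals in place of edgeR's factors lowered the median of all genes by 0.24 to 0.43 and left the 7 rises positive in each clone. Under it the A3 rise of Mest no longer passed (0.97, adjusted p = 0.077 in edgeR) and the fall of Igf2r in iXist-ChrX-Dom WT did (-0.57, adjusted p = 0.0094).

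Of 34 other imprinted genes, 29 to 31 were tested per clone, and 9 or 10 rose and 7 to 9 fell. In the same fits 53% to 55.1% of all genes tested passed, which stands beside each count of this paragraph. Gnas, H19, Igf2, Inpp5f, Ndn, Nnat and Peg12 rose in all 5 clones, with Igf2, the growth factor cleared by the Igf2r receptor, up by 2.72 to 4.16 on the log2 scale. Dio3, Mirg, Rian and Nespas fell in all 5. Of 24 genes beside the 10 loci 17 or 18 were tested, and 5 to 7 rose and 4 to 7 fell. Casd1 and Pon2, near Peg10, and Phactr2, near Plagl1, rose in all 5 clones, and Calcr, near Peg10, and Ddc, beside Grb10, fell. Among 8 factors that maintain imprints, Trim28, Setdb1 and the methylation cofactor Uhrf1 fell in all 5 clones, by log2 changes of -1.51 to -0.37.

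**Figure D4:**
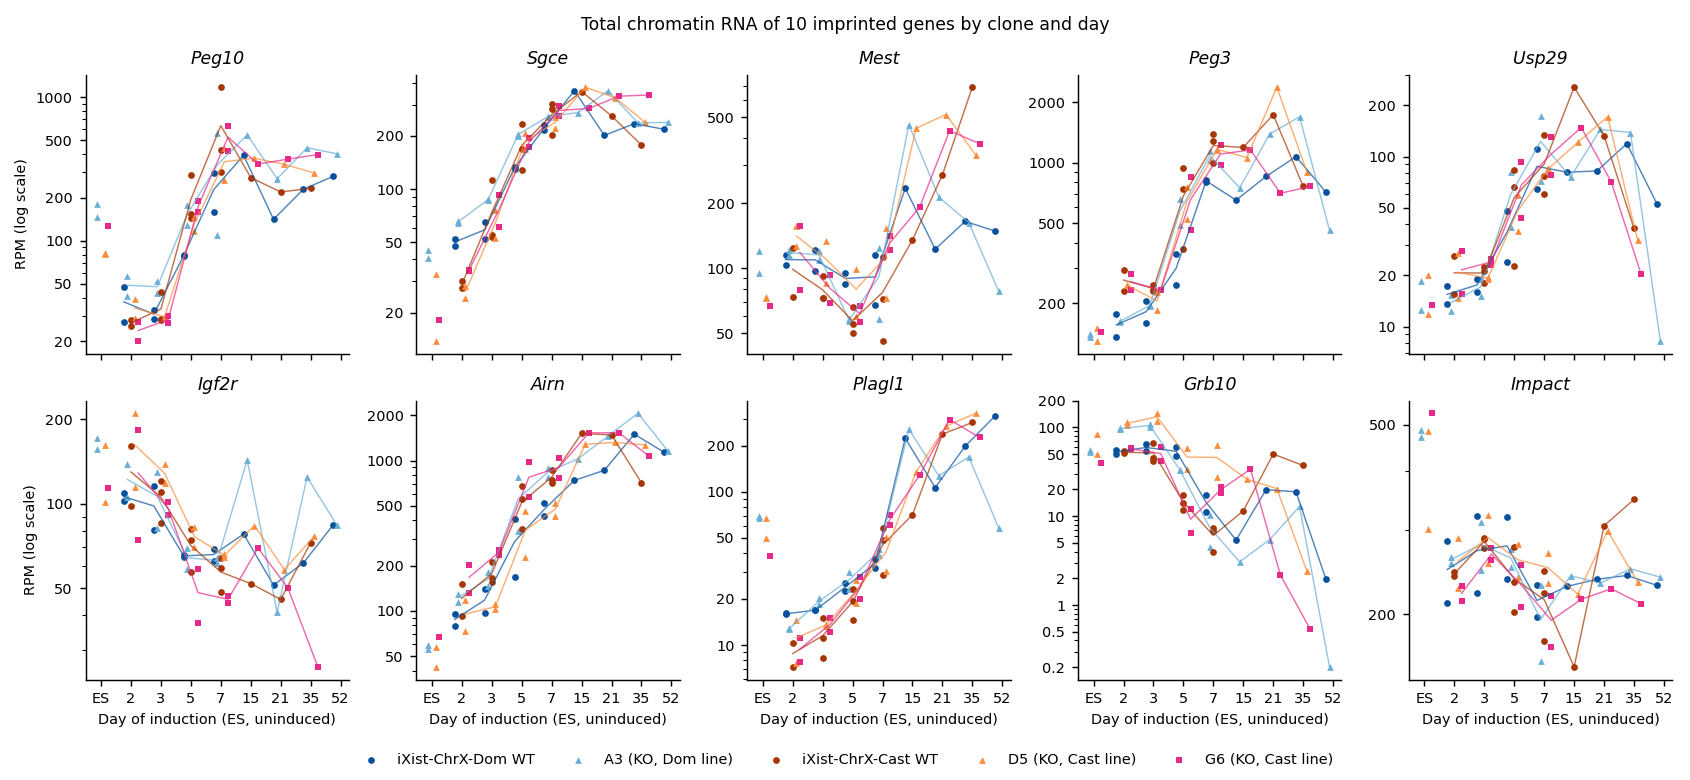
Total chromatin RNA (vertical axis, RPM on a log scale that differs between panels) of the 10 imprinted genes by day of induction. Symbols are replicates, and lines join the daily means of a clone. Peg10, Sgce, Peg3, Usp29, Airn and Plagl1 climb from days 2 and 3 to late days, Grb10 drops to as little as 0.202 RPM, and Impact stays between 155 and 348 RPM after induction.

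The make-up of the cultures changed over the same days. ES cell markers (6 genes, among them Nanog and Esrrb) summed to a median of 1567 RPM in ES cells and to 2.82 to 187 RPM late. The 8 neural precursor markers summed to 179 to 291 RPM at days 2 and 3 and to 193 to 1005 RPM late. The count of Sox1, a defining marker, was 0 in all replicates, and whether its RNA was absent or not counted was not tested. Fibroblast markers (6 genes, among them Col1a1 and Postn) went from 6.75 to 17.1 RPM at days 2 and 3 to 240.4 to 16038 RPM late, more in the KO (median 4473) than in the WT replicates (median 2202). The 4 neuron markers were at 78.8 to 1153 RPM late, and the 4 endoderm markers at 11.3 to 153. Late fibroblast marker fragments had Cast shares of 0.487 to 0.567 in the 17 replicates, so both genomes were read at these genes. The part of these markers in the late values of the imprinted genes was not tested.

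Genes with a course like those of Peg10, Peg3 and Igf2r were ranked by Spearman correlation of log2 RPM over 65 replicates among 10723 genes with a mean of at least 5 RPM. For Peg10 they were Plcd1 (rho = 0.89), Nktr (0.88) and Rnf103 (0.87), with Sgce at rank 45 (0.83). The closest to Peg3 were Pcdh7 (0.91), Wls (0.91) and Maml3 (0.90), and Usp29 came next at rank 4 (0.90). Dnase2a (0.76), Neb (0.75) and Tmem231 (0.75) were closest to Igf2r. These replicates come from time courses of 5 clones and are not independent.

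Changes of the Cast share with time were tested with limma on the shares of autosomal genes, and 4 of the 10 genes passed in at least 1 clone. Airn had shares of 0.514 to 0.584 (median 0.545) at days 2 and 3 and of 0.455 to 0.553 (median 0.487) late. Its mean share fell by 0.07 in iXist-ChrX-Dom WT (adjusted p = 0.003), by 0.05 in iXist-ChrX-Cast WT (adjusted p = 0.0066), by 0.08 in D5 (adjusted p = 0.002) and by 0.06 in G6 (adjusted p = 0.018, and 0.056 without day 35) in limma. In A3 the change was -0.05 (95% interval -0.10 to -0.01), and without day 52, where the share was 0.553, it was -0.07 (adjusted p = 0.0087 in limma). Late shares of Airn were nearer to its neighborhood (median difference -0.00399) than those of days 2 and 3 (0.0573).

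Peg3 and Usp29 had similar courses. Peg3 had shares of 0.576 to 0.595 in ES cells, 0.497 to 0.608 (median 0.548) at days 2 and 3, and 0.454 to 0.528 (median 0.489) late. The fall passed the threshold in iXist-ChrX-Dom WT (-0.09, adjusted p = 0.007 in limma) and in A3 (-0.06, adjusted p = 0.042), where 10 of the 12 fits that left out 1 replicate lost it (-0.07 to -0.05) and those without day 15 or day 3 replicate 2 kept it. In the other clones it was -0.04 to -0.06 and did not pass, except in G6 without day 3 replicate 1 (-0.07, adjusted p = 0.036 in limma). Usp29, with 0.566 to 0.646 in ES cells and 0.444 to 0.527 late, had changes of -0.05 to -0.02 from days 2 and 3, none past the threshold.

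Plagl1 went the other way. Its share was 0.284 to 0.366 in ES cells, 0.292 to 0.519 (median 0.433) at days 2 and 3, and 0.464 to 0.564 (median 0.505) late, so ES and late replicates did not overlap. The rise from days 2 and 3 was 0.12 in iXist-ChrX-Dom WT (adjusted p = 0.031 in limma), where it did not pass without day 2 replicate 1, day 3 replicate 1, day 15, day 21 or day 52 (0.09 to 0.12). It was 0.06 to 0.08 in the other 4 clones and did not pass there, except without A3 day 3 replicate 2 (0.08), D5 day 2 replicate 1 (0.09) or G6 day 5 replicate 2 (0.06).

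Grb10 fell in share in iXist-ChrX-Cast WT (-0.23, adjusted p = 0.0089 in limma) and D5 (-0.15, adjusted p = 0.0047). In iXist-ChrX-Dom WT the change was -0.02 (95% interval -0.20 to 0.15), and without day 35, the library with the share of 0.796, it was -0.13 (adjusted p = 0.016 in limma). In G6 it was -0.07 (-0.12 to -0.02), and without day 35, with 14 allelic fragments, -0.10 (adjusted p = 0.022 in limma). A3 was not fitted for Grb10. None of Peg10, Sgce, Mest, Igf2r, Impact and Usp29 changed share past the threshold from days 2 and 3 in any clone. With days 5 and 7 as the reference, Peg10 (-0.06, adjusted p = 0.014 in limma) and Mest (-0.07, adjusted p = 0.031) fell in D5, and Mest in G6 (-0.06, adjusted p = 0.049). The largest of their changes from days 2 and 3, -0.07 for Peg10 in iXist-ChrX-Cast WT, passed without day 2 replicate 2 (-0.08, adjusted p = 0.046 in limma).

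In all, 3 of 10 genes passed in iXist-ChrX-Dom WT against 11.2% of autosomal genes tested, 1 of 9 in A3 against 11.4%, 2 of 10 in iXist-ChrX-Cast WT against 11.1%, 2 of 10 in D5 against 13.6%, and 1 of 10 in G6 against 12.8%. Apart from iXist-ChrX-Dom WT, these counts were within 1 gene of the number such percentages give. Whether a KO clone changed its shares over time differently from WT of its line was tested as an interaction. None of 9 genes passed for A3 (0% of 10531 genes, 609 at an unadjusted p under 0.05, 0 of them among the 9), none of 10 for D5 (0% of 10277, 652 unadjusted, with Airn) and none of 10 for G6 (0%, 815 unadjusted, with Grb10 and Peg10). For Airn the difference D5 minus WT was -0.03 (95% interval -0.06 to -0.00), and for Grb10 the difference G6 minus WT was 0.15 (0.05 to 0.26).

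Knockout against WT asked whether loss of SmcHD1 changed the level or allelic state of these genes. Smchd1 itself had 360.2 to 709 RPM (median 579.8) in 26 WT and 217 to 616 (median 510.5) in 39 KO replicates, and counts over its whole span do not check small CRISPR mutations. Sgce was the 1 gene of 10 to pass in A3 against WT at days 2 to 7, where 0.803% of 15443 genes passed. Its WT replicates had 47.8 and 52.4 RPM at day 2, 52.0 and 65.5 at day 3, 129.7 and 134 at day 5, and 215 and 229.9 at day 7. Those of A3 had 64.3 and 66.3, 86.6 and 87.9, 201 and 206, and 256 and 258. The clones did not overlap at any of the 4 days. The log2 fold change was 0.49 (SE 0.07, 95% interval 0.34 to 0.65, adjusted p = 0.0087 in edgeR), and it passed in all 16 fits with 1 replicate left out. In a single fit over all induced libraries of the line the fold was 0.50 and did not pass (adjusted p = 0.069 in edgeR).

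Peg10, beside Sgce, was at 0.67 (95% interval 0.13 to 1.20, adjusted p = 0.24 in edgeR) in the same comparison. At day 7 its A3 replicates had 566 and 109 RPM and its WT replicates 295 and 158, and without A3 day 7 replicate 2 the value was 0.81 (adjusted p = 0.034 in edgeR). Airn had 79.4 and 95.9 RPM in WT at day 2 against 130.1 and 115 in A3, and 428 and 522 at day 7 against 783 and 896. Its log2 fold change was 0.73 (0.30 to 1.15, adjusted p = 0.11 in edgeR, 0.019 in DESeq2). Peg3 was at 0.42 (0.14 to 0.71, adjusted p = 0.16 in edgeR). The other 6 genes were between -0.06 and 0.32 with adjusted p of 0.58 or more. Among the other imprinted genes Gnas (0.26, adjusted p = 0.039 in edgeR) was the 1 of 30 to pass, and among neighbors Cobl, next to Grb10, fell by 1.23 on the log2 scale (adjusted p = 0.019), 1 of 17.

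Late, in A3 against WT at days 15 to 52, edgeR called 0 of 10 genes and 0% of 15229. At an unadjusted p under 0.05 there were 3 of the 10 and 1622 of all, and DESeq2 called 2 of the 10 and 189 of all. Peg10 had 394, 141, 229 and 281 RPM in WT at days 15, 21, 35 and 52, and 546, 271, 444 and 403 in A3, above WT at each day. DESeq2 gave it 0.86 (adjusted p = 0.00013). Airn had 738, 861, 1498 and 1134 RPM in WT and 1027, 1454, 2064 and 1159.8 in A3, again above at each day, with 0.57 in DESeq2 (adjusted p = 0.0072, against 0.46 in edgeR). Grb10, low at these days, was at -1.33 (95% interval -2.38 to -0.29). Fibroblast markers summed to 384 to 8022 RPM in these WT replicates and to 766 to 10024 RPM in A3, and their part in the differences was not tested.

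In the iXist-ChrX-Cast line D5 and G6 together were compared with WT. At days 2 to 7 edgeR called 0 of 10 genes and 0.381% of 15499, and DESeq2 called 1, Grb10, and 244 of all. At an unadjusted p under 0.05 in edgeR there were 2 of the 10, Grb10 and Mest, and 1528 of all genes. Grb10 had 51.1 and 53.9 RPM in WT at day 2 and 41.8, 45.5 and 67.2 at day 3. D5 had 106 and 116, then 119 and 144, above all WT replicates. G6 had 56.9 and 58 at day 2, above WT of that day, and 42 and 59.7 at day 3, within the range of WT of that day. By day 7 WT had 4.00 to 7.30 RPM, D5 27.9 and 63.7, and G6 18.4 and 21.2, both above WT.

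For both clones together the log2 fold change of Grb10 was 1.18 (SE 0.30, adjusted p = 0.074 in edgeR, 0.013 in DESeq2), and it passed without G6 day 5 replicate 2 (1.27, adjusted p = 0.037 in edgeR). For D5 alone it was 1.74 (adjusted p = 0.00012 in edgeR), and for D5 alone Airn was at -0.67 (adjusted p = 0.012), where both clones together gave 0.01 (-0.44 to 0.45). The D5 comparison alone called 1285 of all genes, against 59 for both clones together. Mest was at 0.39 (0.11 to 0.66, adjusted p = 0.22 in edgeR), and the remaining 7 genes were between -0.28 and 0.25. Of 31 other imprinted genes tested 1 passed, Peg12, at 1.43 (adjusted p = 0.0026 in edgeR).

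At days 15 to 35 edgeR called 0 of 10 genes and 0% of 14963 in this line (1 of the 10 and 1898 of all at an unadjusted p under 0.05), and DESeq2 called 0 of the 10 and 426 of all. Peg10 had 275, 218 and 232 RPM in WT, 376, 340.3 and 296 in D5, and 342, 369.7 and 399 in G6, with both clones above WT at each day. Its log2 fold change was 0.64 (95% interval 0.21 to 1.07, adjusted p = 0.31 in edgeR). The interval of Grb10 was wide, -5.14 to 0.28. WT replicates of these days had 240.4, 2279 and 9293 RPM of fibroblast markers at days 15, 21 and 35, and KO replicates had between 1196 and 16038, whose part in these values was not tested.

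**Figure D5:**
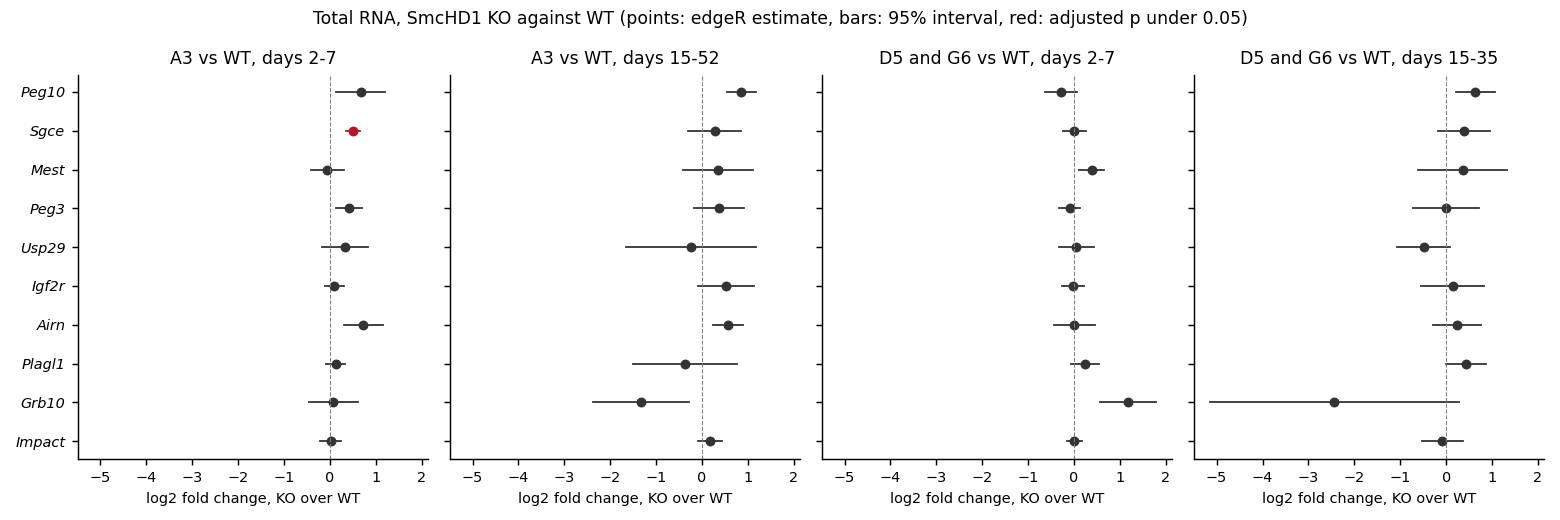
Log2 fold change of total RNA, KO over WT (horizontal axis), of the 10 imprinted genes in 4 comparisons. Points are edgeR estimates, bars 95% intervals, and red marks an adjusted p under 0.05. Only Sgce in A3 at days 2 to 7 is red, at 0.49, and Peg10 lies above 0 in 3 of the 4 panels.

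The KO effects of the lines were compared directly at days 2 to 7, and 0 of 10 genes passed (0.288% of 15974 genes). At an unadjusted p under 0.05 there were 6 of the 10 and 1424 of all genes in edgeR. These 6 were Peg10, at -0.95 (95% interval -1.57 to -0.33) as the iXist-ChrX-Cast minus the iXist-ChrX-Dom effect, Sgce (-0.49), Peg3 (-0.52), Airn (-0.72), Mest (0.45) and Grb10 (1.10). Late, 0 of 10 passed in edgeR (0% of 15642 genes, with 883 at an unadjusted p under 0.05, none of the 10 among them).

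Allelic shares of KO clones were not found to differ from WT for any of the 10 genes. In limma 0 of 10 passed for A3 at days 2 to 7 (0.183% of 11463 autosomal genes), 0 of 10 for D5 (2.92% of 11112) and 0 of 10 for G6 (0.324%). At an unadjusted p under 0.05 there were Plagl1 in A3 (0.06, 95% interval 0.01 to 0.10), Airn and Peg3 in D5 (0.02 and -0.02) and Peg10 in G6 (-0.03). Of all genes tested there were 1253 in A3, 1551 in D5 and 1184 in G6. Late, 0 of 9 passed for A3 (0% of 11085), 0 of 10 for D5 (0.449% of 10908) and 0 of 10 for G6 (0%), with Mest in D5 (-0.04, -0.08 to -0.00) and Grb10 in G6 (0.16, 0.01 to 0.31) at an unadjusted p under 0.05. In A3, D5 and G6 late, 838, 936 and 891 of all genes were at an unadjusted p under 0.05. An edgeR test of the allelic counts gave 0 of these genes in each of the 6 comparisons, and 3 and 2 of all genes in late A3 and G6. At days 2 to 7 the intervals of the difference lay within -0.06 and 0.10 for all genes and clones.

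The WT clones of both lines, compared at days 2 to 7, differed in share at 18.9% of 11178 autosomal genes and at 0 of the 10. Taken as iXist-ChrX-Cast minus iXist-ChrX-Dom, the difference of Peg3 was -0.02 (95% interval -0.04 to -0.00, adjusted p = 0.16 in limma). Plagl1 was at 0.04 (-0.00 to 0.09) and passed without iXist-ChrX-Dom WT day 2 replicate 2 (0.06, adjusted p = 0.020 in limma), and Mest was at 0.02 and passed without iXist-ChrX-Cast WT day 7 replicate 1 (0.03, adjusted p = 0.023). The edgeR test on allelic counts also called 0 of the 10.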

How the data were processed

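ChrRNA-seq libraries of iXist-ChrX-Dom and iXist-ChrX-Cast clones were analyzed from the deposited counts. The authors had removed ribosomal RNA reads with Bowtie2 2.3.2, aligned to N-masked mm10 with STAR 2.4.2a, split fragments by allele with SNPsplit, and counted strand-specific fragments over whole transcripts with featureCounts, giving total, Cast and Dom counts per gene. The allelic ratio fractions deposited by the authors for the iXist-ChrX-Cast line served to check which count column holds the Cast allele, and 26 per-sample columns of the other ratio table were not used. Libraries whose titles differed only in a final R1 or R2 were added together. The titles do not say what this ending stands for. Total counts were tested with edgeR 4.0.16 (quasi-likelihood, TMM, filterByExpr) and Cast shares with limma 3.58.1, among autosomal genes with at least 10 allelic fragments in each replicate, with day or period in the model and Benjamini-Hochberg adjustment over all genes (R 4.3.3). DESeq2 1.42.0 was an alternative. Both were tested on simulated data. Replicate numbers were not taken to pair samples. The genes and lists were chosen with earlier results of these data known. All 10 genes were named in each comparison, neighbors and other imprinted genes where they passed, plus the 3 genes most like Peg10, Peg3 and Igf2r. Promoter sequences are from RefSeq (GRCm38.p6).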

Additional observations from a re-analysis of the deposited data

Results flagged for a closer look

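The KO effects of the lines differed past the threshold for 2 genes of the lists beside the 10 imprinted genes, by an interaction test in edgeR with Benjamini-Hochberg adjustment at days 2 to 7. Cobl, a neighbor of Grb10 that encodes an actin nucleator, had a KO effect of -1.23 in the iXist-ChrX-Dom line and 0.03 in the iXist-ChrX-Cast line, a difference of 1.25 (95% interval 0.71 to 1.79, adjusted p = 0.026). Dppa3, which protects methylation in early embryos, had -1.20 and 0.45, a difference of 1.65 (0.89 to 2.41, adjusted p = 0.043), at 1.53 to 7.54 RPM at days 2 and 3.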

How the results depend on the processing

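Of 4861 combinations of a result and an alternative setting, 4771 kept direction and side of the threshold, 57 lost the threshold, 26 gained it and 7 reversed. Differences that passed in neither setting were not counted as reversed. Of the 10 genes, A3 against WT at days 2 to 7 called 1, and 2 with DESeq2, 2 with a crossed replicate block and 0 in one fit over all induced libraries of the line, where Sgce kept its fold (0.50, adjusted p = 0.069 in edgeR). Late, DESeq2 called 2 in place of 0. In the iXist-ChrX-Cast line at days 2 to 7, DESeq2 called 1 and D5 alone 2 in place of 0, where Airn reversed to -0.67. Same-numbered samples were not treated as paired, since the correlations of their deviations were -0.727 to -0.446 in the iXist-ChrX-Dom line, and in the iXist-ChrX-Cast line 0.117 to 0.794 for replicate 1 but -0.606 to 0.794 for replicate 2. The crossed pairing, added after seeing the data, called 540 genes against 124 in A3 at days 2 to 7, Airn among them. The replicate block changed 1 count of these genes, that of shares between WT lines, from 0 to 1 (Peg3, -0.03). Over all genes it gave 249 against 59 calls in that line at days 2 to 7. There, library totals gave 114, no filter 37, one fit 21, G6 alone 273 and D5 alone 1285. With days 5 and 7 as the reference, the total RNA of 4, 5, 4, 4 and 3 genes changed late in iXist-ChrX-Dom WT, A3, iXist-ChrX-Cast WT, D5 and G6, against 8, 8, 8, 9 and 8 from days 2 and 3, and the shares of 0, 0, 1, 3 and 1 against 3, 1, 2, 2 and 1. The genes were not the same: in D5 and G6 Airn no longer passed (-0.0201 and -0.0184), while Peg10 and Mest did in D5 and Mest in G6. Reversed then were the share of Peg3 in A3 (0.0171) and the totals of Peg10 (-0.58), Igf2r (0.0228) and Grb10 (1.94) in iXist-ChrX-Cast WT and of Igf2r in D5 (0.30) and G6 (0.31). That reference asks another question. With day 15 as the only late library, shares in iXist-ChrX-Dom WT gave 0. With 1 replicate left out, the counts were 1 to 2 (A3, days 2 to 7), 0 to 1 (iXist-ChrX-Cast KO, days 2 to 7), 0 to 1 (shares between WT lines), and, for changes of share with time, 2 to 4, 0 to 2, 2 to 3, 2 to 3 and 1 to 2 in the clones as ordered above. Total RNA over time gave 7 to 9. The causes of these moves were not tested. The interaction tests of KO effects between lines at days 2 to 7 and of G6 shares over time were not repeated with replicates left out. For all genes, DESeq2 called 550 against 124 (A3, days 2 to 7), 189 against 0 (A3, late), 244 against 59 and 426 against 0 (iXist-ChrX-Cast, early and late), and one fit 23, 463, 21 and 1361. The edgeR test of allelic counts called 143 against 21 shares in A3 early, 93 against 36 in G6 early and 119 against 49 in D5 late. Late days have 1 library per clone, Grb10 has as few as 4 allelic fragments there, and its shares are the least certain.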
